A study of Rattus norvegicus with 172 samples.

Results

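The genes described here rose in the spinal cord just rostral to a transection within the first days and were back near their normal level by day 20. They were chosen by their values in the lesion control animals. Each gene was read on whichever of its probe sets was brightest on average in cord. A gene was taken where its mean on day 1 or day 3 lay at least 1.5 log2 above the normal cord mean while its means on days 20 and 90 each lay less than 0.5 above it. Of 14218 genes, 654 had the early rise and 30 of them, or 4.6%, met both limits. A further 20 were left out because they stand on lists of other gene groups of this study, which leaves 10: Ucn2, Saa3, Gnat2, Pcdh20, Gprc5a, Cdo1, Rgs16, Adam8, Pex11a and Gadd45b. The lists of the other groups were written here from the groups' names, so the boundary between the 10 and the 20 is approximate.

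The study cut the cord of adult female Wistar rats (2 months old, 250 to 300 g) at thoracic levels 7 to 8 and took out 5 mm of cord. In the NT-3 tube animals a chitosan tube carrying the neurotrophin NT-3 bridged the gap, in the tube alone animals the tube had no NT-3, and lesion control animals received no implant. Segments of 5 mm on the rostral and the caudal side were arrayed on days 1, 3, 10, 20, 30, 60 and 90. Sampling of the lesion segment began on day 3, and for tube alone animals only that day is used. Each group has 3 arrays, except that tube alone rostral on day 10 has 2, and each RNA was pooled from 4 animals. The reference is 3 arrays of normal, uncut cord from the same level, and all animals with surgery carry the same transection, so no sham operation separates surgery from loss of the segment. Values are deposited log2 RMA values (a normalized fluorescence of each probe set), on which 1 unit is a doubling, and levels are not comparable between genes.

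Injured cord is known to pass through an early phase in which resident cells switch on stress and signalling genes and blood leukocytes enter the tissue, followed by a long phase of macrophage, scar and matrix gene expression. Acute-phase proteins, proteases of leukocytes, peptides acting on G-protein-coupled receptors and inhibitors of G-protein signalling are typical products of such a short early phase. In bulk tissue, fewer cells of a type and less RNA per cell cannot be told apart.

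Marker genes fit the labelled tissue: in normal cord the summed signal (linear scale, over each list of markers) was 77126 to 79589 for neurons and 75028 to 79241 for oligodendrocytes, against 569 to 1405 for neutrophils. On day 1 the rostral lesion control arrays had 3547 to 7361 for the 8 neutrophil markers (5 of 8 higher in mean than in normal cord) and 14302 to 16611 for the 9 monocyte and macrophage markers (9 of 9 higher), against 3413 to 4208 for those 9 in normal cord. All 10 neuron markers were below their normal mean on that day, with a sum of 58316 to 68086. The 3′ minus 5′ difference of the GAPDH control probe sets, a measure of RNA integrity, lay between -0.22 and 0.46 on injured arrays and between -0.13 and 0.36 on normal arrays. That of actin was higher in mean on the normal arrays (1.73, arrays 1.36 to 2.31), against group means of 0.77 to 1.51 in injured cord. Single injured arrays reached 2.14 (tube alone, lesion, day 3) and 1.82 (NT-3 tube, rostral, day 3), inside the normal range. The part of actin's higher normal mean in the differences from normal cord was not tested. A class I histocompatibility gene, RT1-CE10, split the groups in another way: on day 1 it lay between 10.20 and 11.36 on the NT-3 tube and tube alone arrays of both segments, against 6.48 to 6.83 on the lesion control arrays. Rostral and caudal NT-3 tube arrays of day 90 were also high (10.17 to 11.42) and those of day 3 intermediate (7.26 to 9.73). Tube alone and lesion control arrays of those segments lay between 6.93 and 7.54 on day 3. Lesion control was not low throughout: on day 30 all groups were high, with lesion control means of 10.95 rostral, 11.08 caudal and 11.6 at the lesion. Also high were tube alone on day 60 (means of 10.42 rostral and 10.28 caudal) and the NT-3 tube lesion segment on day 90 (11.45). What that level marks was not tested, and on day 1 it cannot be told apart from the difference between tube-bearing and lesion control animals.

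To show the regulatory sequence beside genes that move together, the proximal promoters of 3 members are given, because they are the members whose window held any of 7 short motifs searched. The windows run from 250 bases before to 50 after the annotated start (RefSeq, build GRCr8) and were found for 7 of the 10 members, Saa3, Pex11a, Adam8, Gadd45b, Ucn2, Rgs16 and Pcdh20, not for Gnat2, Gprc5a and Cdo1. Both strands were searched for AP-1 (TGACTCA), NF-kB (GGNNTTTCC), STAT (TTCNNNGAA), C/EBP (TTGCNNAA), the hypoxia element HRE (ACGTG), CRE (TGACGTCA) and ISRE (GAAANNGAA). Capitals mark the matches. Saa3 (chr1:106358381-106358680, minus strand) holds a C/EBP match, TTGCGTAA, that begins at position -75 from the start. Ucn2 (chr8:118515861-118516160, plus strand) holds an AP-1 match on the opposite strand that begins at -167, and Gadd45b (chr7:9430669-9430968, minus strand) holds HRE matches on both strands at -177 and -178 that overlap. The HRE matches lie in the same palindrome, CACGTG, and are thus not separate sites.
Saa3: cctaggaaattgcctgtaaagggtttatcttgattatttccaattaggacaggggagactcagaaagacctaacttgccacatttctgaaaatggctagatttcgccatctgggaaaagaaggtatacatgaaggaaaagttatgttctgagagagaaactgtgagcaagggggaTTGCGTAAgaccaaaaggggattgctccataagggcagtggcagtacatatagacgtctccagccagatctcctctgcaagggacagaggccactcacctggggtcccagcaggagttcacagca
Ucn2: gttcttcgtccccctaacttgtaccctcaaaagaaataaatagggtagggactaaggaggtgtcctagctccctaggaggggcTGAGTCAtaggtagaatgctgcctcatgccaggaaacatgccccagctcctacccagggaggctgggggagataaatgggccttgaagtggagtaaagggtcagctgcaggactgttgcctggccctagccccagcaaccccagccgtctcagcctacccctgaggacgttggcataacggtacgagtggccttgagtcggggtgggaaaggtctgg
Gadd45b: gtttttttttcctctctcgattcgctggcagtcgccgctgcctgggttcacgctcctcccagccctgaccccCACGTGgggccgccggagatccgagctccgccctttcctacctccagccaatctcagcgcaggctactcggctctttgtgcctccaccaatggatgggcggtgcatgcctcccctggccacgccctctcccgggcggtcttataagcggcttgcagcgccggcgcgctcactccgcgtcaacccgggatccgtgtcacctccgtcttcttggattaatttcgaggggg
Of all 33469 promoter windows of that length, 4.6% hold the AP-1 letters, 10.6% those of C/EBP and 19.3% those of HRE, and each was found in 1 of the 7 members' windows. Both strands of the NF-kB, STAT, CRE and ISRE letters were without a match in the 7 windows, against 6.1%, 8.9%, 1.8% and 9.7% of all windows with one.

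In lesion control animals, 8 of the 10 genes were highest on day 1 and 2, Gnat2 and Gprc5a, on day 3. Only Ucn2 and Gprc5a were past 1.5 on both days. These levels chose the genes and are given without a test.

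Ucn2 and Saa3 encode secreted proteins. Ucn2, urocortin 2, a peptide of the corticotropin-releasing factor family that acts on the type 2 receptor of that family, had 6.87, 7.62 and 8.58 on day 1 and 6.18, 7.37 and 6.89 on day 3 in the rostral lesion control segment, against 4.91, 4.75 and 4.89 in normal cord. All 6 early arrays lay above every normal array, and the day 1 mean was 2.84 log2 above normal. The normal means of Ucn2, Saa3, Gnat2, Gprc5a and Adam8 lie below 6.55, the 40th percentile of cord values, where the scale compresses differences. For this reason no fold is given for them. The 6 Ucn2 values of days 20 and 90 lay between 4.69 and 5.35. Saa3, a serum amyloid A of the acute-phase response that is made outside the liver, had 9.81, 7.59 and 7.68 on day 1, against 5.53, 5.79 and 5.56 in normal cord, a mean 2.73 log2 higher. On day 3 it was already at 5.61, 6.07 and 5.69, which overlaps normal cord. Saa3 also varied most between pools on day 1, with an SD of 1.26 (n = 3).

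Gprc5a, Rgs16 and Gnat2 belong to G-protein signalling. Gprc5a, an orphan receptor inducible by retinoic acid, had 7.63, 7.35 and 7.48 on day 1 and 7.60, 7.82 and 7.66 on day 3, against 6.11, 6.00 and 5.63 in normal cord, so both early days lay apart from normal and close to each other. Rgs16, which speeds up GTP hydrolysis by G-protein alpha subunits and so ends receptor signals, had 10.46, 10.29 and 10.53 on day 1 and 9.64, 9.72 and 9.56 on day 3, against 8.52, 9.02 and 8.79 in normal cord. It stepped down between the 2 days without overlap. Gnat2, the alpha subunit of the transducin of cone photoreceptors, was a day 3 gene, with 6.67, 6.22 and 6.29 on day 3, against 4.24, 4.04 and 4.24 in normal cord, a mean difference of 2.22 log2. On day 1 it had 4.84, 4.78 and 4.84, only 0.65 log2 above normal in mean.

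Adam8 and Pcdh20 are cell-surface proteins. Adam8, a membrane metalloprotease with a disintegrin domain carried by leukocytes, had 8.23, 7.36 and 7.31 on day 1 and 7.21, 7.73 and 7.0 on day 3, against 5.77, 6.50 and 5.94 in normal cord. Its second probe set did not follow: it was 0.20 log2 below normal on day 1 (-0.20) and had a normal mean of 5.95, so the early rise of Adam8 rests on 1 probe set. Pcdh20, a protocadherin of neural cell adhesion, had 9.73, 10.02 and 9.65 on day 1, against 8.21, 7.87 and 7.89 in normal cord. On day 3 it had 7.12, 6.76 and 6.77 and was thus below every normal array, and it remained below the normal mean at all later times (-0.48 to -0.88 log2 in mean). Its second probe set had the same course (2.00 on day 1 and -1.22 on day 3, log2 against normal).

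Gadd45b, Cdo1 and Pex11a act in stress and metabolism. Gadd45b, a growth-arrest and DNA-damage-inducible stress gene, had 10.41, 9.99 and 10.22 on day 1, against 8.22, 8.97 and 8.83 in normal cord. It did not come fully back to the normal mean, and lay 0.36, 0.36 and 0.35 log2 above it on days 3, 20 and 90, and 0.60 on day 60, a day the rule did not use. Cdo1, cysteine dioxygenase, which oxidises cysteine on the way to taurine and sulfate, had 12.76, 12.72 and 12.74 on day 1, against 10.97, 10.98 and 10.93 in normal cord. With an SD of 0.02 within day 1 and 0.03 within normal cord it was the least variable member. Pex11a, a membrane protein of peroxisome division, had 9.49, 9.52 and 9.20 on day 1, against 7.98, 7.77 and 7.85 in normal cord, and was at 8.14, 7.94 and 7.73 on day 3. Its second probe set was 1.81 log2 above normal on day 1 in mean, but also 0.43 on day 20 and 0.68 on day 90, so it would not meet the late limit.

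**Figure D1:**
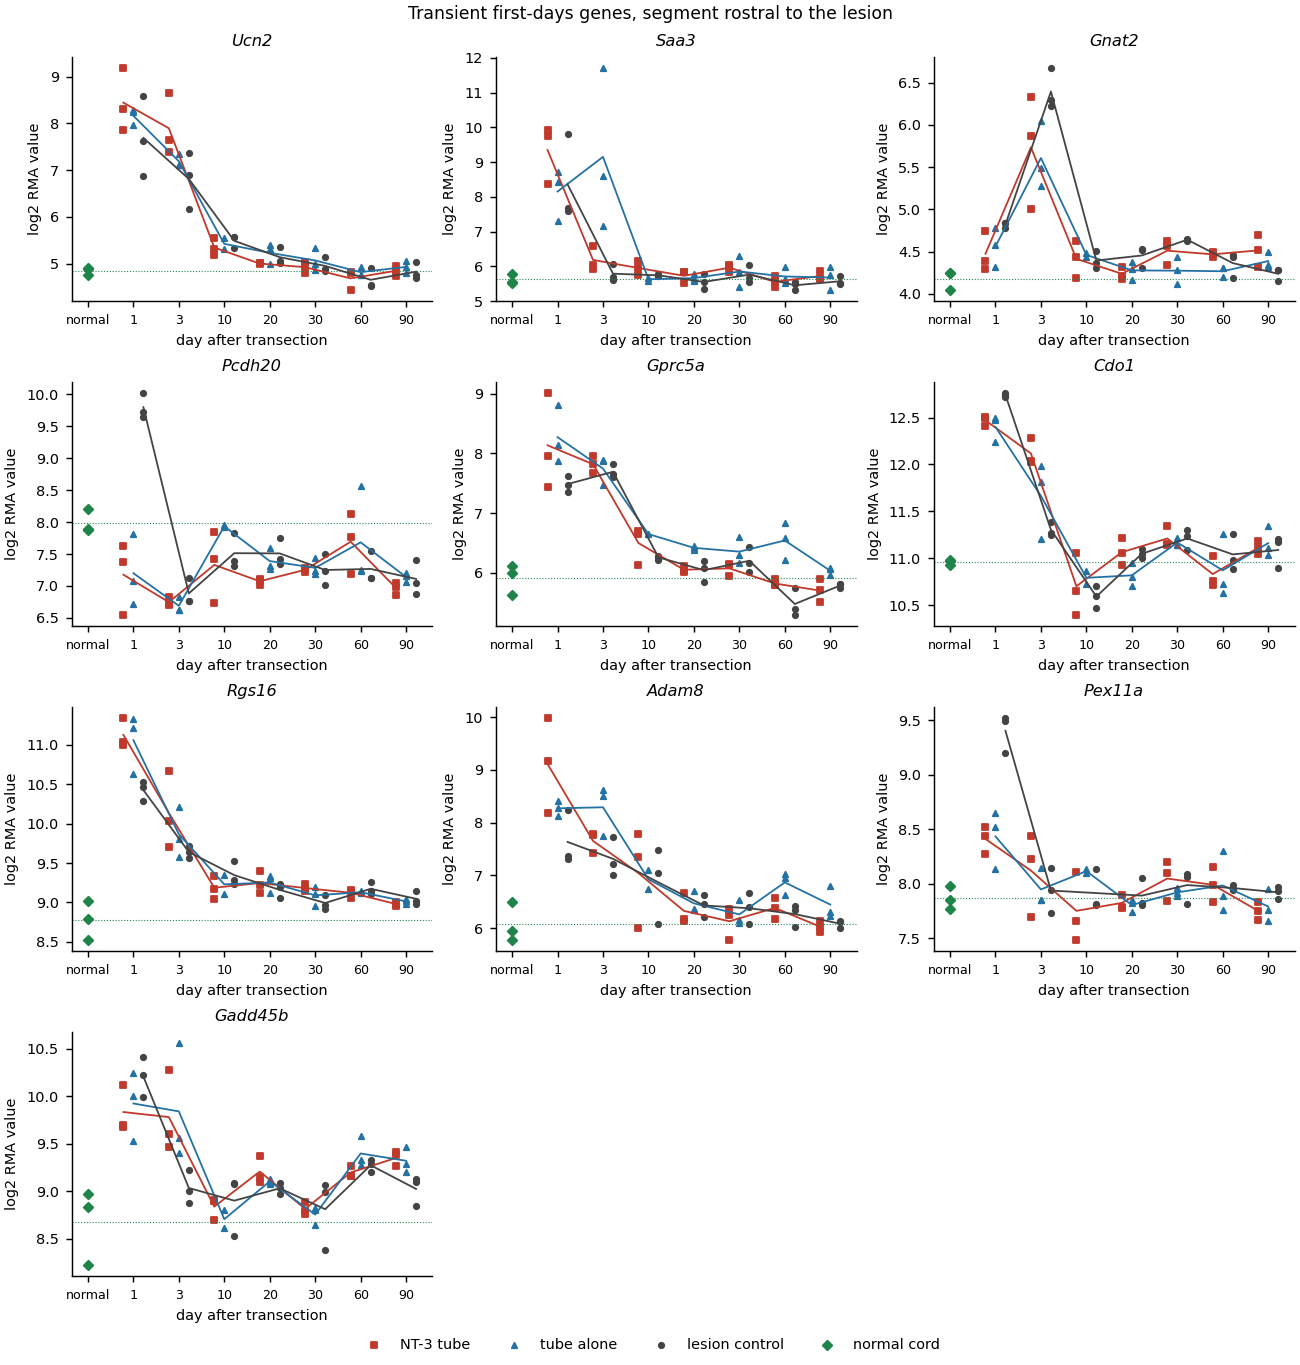
Log2 RMA value (vertical axis) of each of the 10 genes in the rostral segment by day after transection (horizontal axis, not to scale), with normal cord at the left and its mean as a dotted line; points are arrays and lines join group means for NT-3 tube, tube alone and lesion control. Ucn2, Gprc5a, Rgs16 and Adam8 are high on both early days in all 3 arms, Gnat2 is high on day 3, and Pcdh20 is high on day 1 in lesion control only (9.65 to 10.02).

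The genes nearest to the limits show how sharp the choice is. Just inside the early limit were Gadd45b, Pex11a and Adam8 (1.53, 1.54 and 1.56 log2), and just outside it Tmbim1, Fam72a and Sapcd2 (1.48, 1.46 and 1.45). Just inside the late limit were Rgs16, Adam8 and Gadd45b (0.38, 0.36 and 0.36), and just outside it Cenpi, Gja5 and Ncaph (0.51, 0.51 and 0.54). Of the 20 genes left out as members of other groups, 7 encode proteins of DNA replication and cell division that were highest on day 3 (Cenpt, Uhrf1, E2f8, Pole2, Cdca8, Hmmr and Timeless), and others encode chemokines highest on day 1 (Cxcl2 at 4.66, Ccl20 at 2.80 and Cxcl3 at 1.95 log2 above normal).

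The levels of the tube-bearing animals were not used by the limits that chose the genes, although their arrays count toward the mean that picks the probe set of the 4 members with more than 1. In them the first days were set against days 20 and 90 (days 1 and 3 minus days 20 and 90, limma). In the rostral segment 9 of the 10 genes were higher in the first days with the NT-3 tube, where 26.2% of all genes were called higher, and 9 of 10 with tube alone, where 19.5% were. The exception was Pcdh20 in both, with differences of -0.06 and -0.32 log2. The median difference of the 10 genes was 1.36 log2 with the NT-3 tube and 1.19 with tube alone, against 0.03 and 0.01 over all genes. With tube alone RT1-CE10 had 10.66 to 10.99 on rostral day 1 arrays and 6.85 to 7.76 on those of days 3, 20 and 90. Caudally it had 10.20 to 11.11 and 7.08 to 7.47. The part of that split in these differences was not tested.

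Ucn2 had the largest difference with the NT-3 tube, with 7.85, 8.30 and 9.18 on day 1, 8.66, 7.39 and 7.64 on day 3 and 4.74 to 5.01 on the 6 arrays of days 20 and 90. Early and late arrays did not overlap, and the difference was 3.24 ± 0.19 log2 (SE, adjusted p = 3.7e-19). With tube alone it was 2.59 ± 0.19 (adjusted p = 7.02e-16). Adam8 differed by 2.20 ± 0.23 with the NT-3 tube and 1.82 ± 0.23 with tube alone, Gprc5a by 2.10 ± 0.15 and 1.78 ± 0.15, and Rgs16 by 1.52 ± 0.11 and 1.33 ± 0.11. Cdo1 differed by 1.21 ± 0.10 and 1.04 ± 0.10. The smallest called differences were those of Pex11a (0.48 and 0.39), Gadd45b (0.53 and 0.67) and Gnat2 (0.73 and 0.75).

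Saa3 differed by 2.04 ± 0.36 log2 with the NT-3 tube (adjusted p = 5.16e-06) and by 2.98 ± 0.36 with tube alone (adjusted p = 1.82e-09), and its course was uneven. With the NT-3 tube it had 8.37, 9.75 and 9.92 on day 1 and 6.60, 6.04 and 5.92 on day 3. With tube alone it had 7.31, 8.72 and 8.43 on day 1 and 8.60, 11.70 and 7.15 on day 3, so the day 3 pools were spread over more than 4 units. The neutrophil marker sum (log2) of those 3 day 3 pools was 11.608, 14.139 and 12.016, and the pool with the most Saa3 also had the highest sum, while the pool with the least Saa3 did not have the lowest. In the caudal day 3 pools of that arm, Saa3 was 8.46, 10.14 and 6.56 and the sum 12.217, 12.055 and 10.936. There the highest of each were in different pools and the lowest of each in the same pool. The part of neutrophils in the level of Saa3 was not tested. With day 3 set against day 20 alone, Saa3 was not called with the NT-3 tube (0.46, adjusted p = 0.547).

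**Figure D2:**
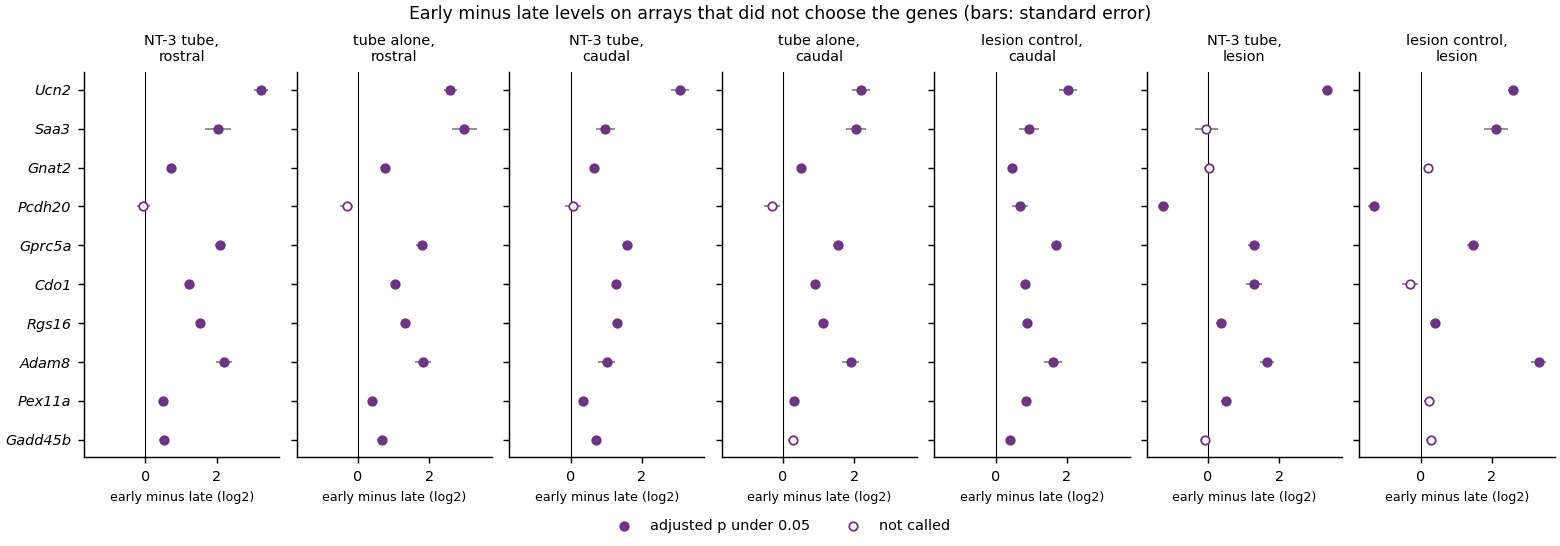
Difference between early and late days (log2, horizontal axis; days 1 and 3 minus days 20 and 90, and day 3 minus days 20 and 90 in the lesion segment) of the 10 genes in 7 arm and segment combinations; points are estimates, bars standard errors, filled points adjusted p under 0.05. Ucn2, Gprc5a, Rgs16 and Adam8 are called higher in all 7, and Pcdh20 is called higher in the caudal lesion control only and lower in both lesion segments.

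In the caudal segment, below the cut, most of the genes were also higher early. In lesion control 10 of the 10 genes were higher in the first days caudally, where 17.6% of all genes were called higher. With the NT-3 tube 9 of 10 were (24.8% of all genes), and with tube alone 8 of 10 (18.8%). Pcdh20 was not called in either tube arm (0.08 and -0.31 log2), nor Gadd45b with tube alone (0.27 log2, adjusted p = 0.0703). The labels do not say whether rostral and caudal arrays of a number come from the same animals. Same-numbered lesion control arrays of day 1 stood in the same order in both segments for Ucn2 (6.07, 6.94 and 8.15 caudal, against 6.87, 7.62 and 8.58 rostral), and over all genes the deviations of same-numbered arrays on that day correlated at 0.119 to 0.452, so the caudal lesion control values may not be independent of those that chose the genes.

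In the caudal lesion control segment the largest differences were those of Ucn2 (2.03 ± 0.25 log2, adjusted p = 4.34e-09), Gprc5a (1.70 ± 0.14) and Adam8 (1.61 ± 0.24). Gadd45b (0.40), Gnat2 (0.46) and Pcdh20 (0.67) had the smallest. The count depends on day 1. With day 3 set against day 20 alone, 4 of the 10 were called higher, Pcdh20 was called lower (-0.97, adjusted p = 0.0244), and Cdo1 (-0.05), Pex11a (-0.01) and Gadd45b (-0.02) were near 0. Day 1 minus day 90 gave 9 of 10. The shares of all genes called in these single-day contrasts are not given here, so their counts have no background beside them. Without lesion control caudal day 1 replicate 1, Saa3 was not called (0.63, adjusted p = 0.0598). Pcdh20 was not called without day 1 replicate 2 (0.57, adjusted p = 0.0619), day 20 replicate 1 (0.60, adjusted p = 0.0502) or day 90 replicate 1 (0.59, adjusted p = 0.0542).

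**Figure D3:**
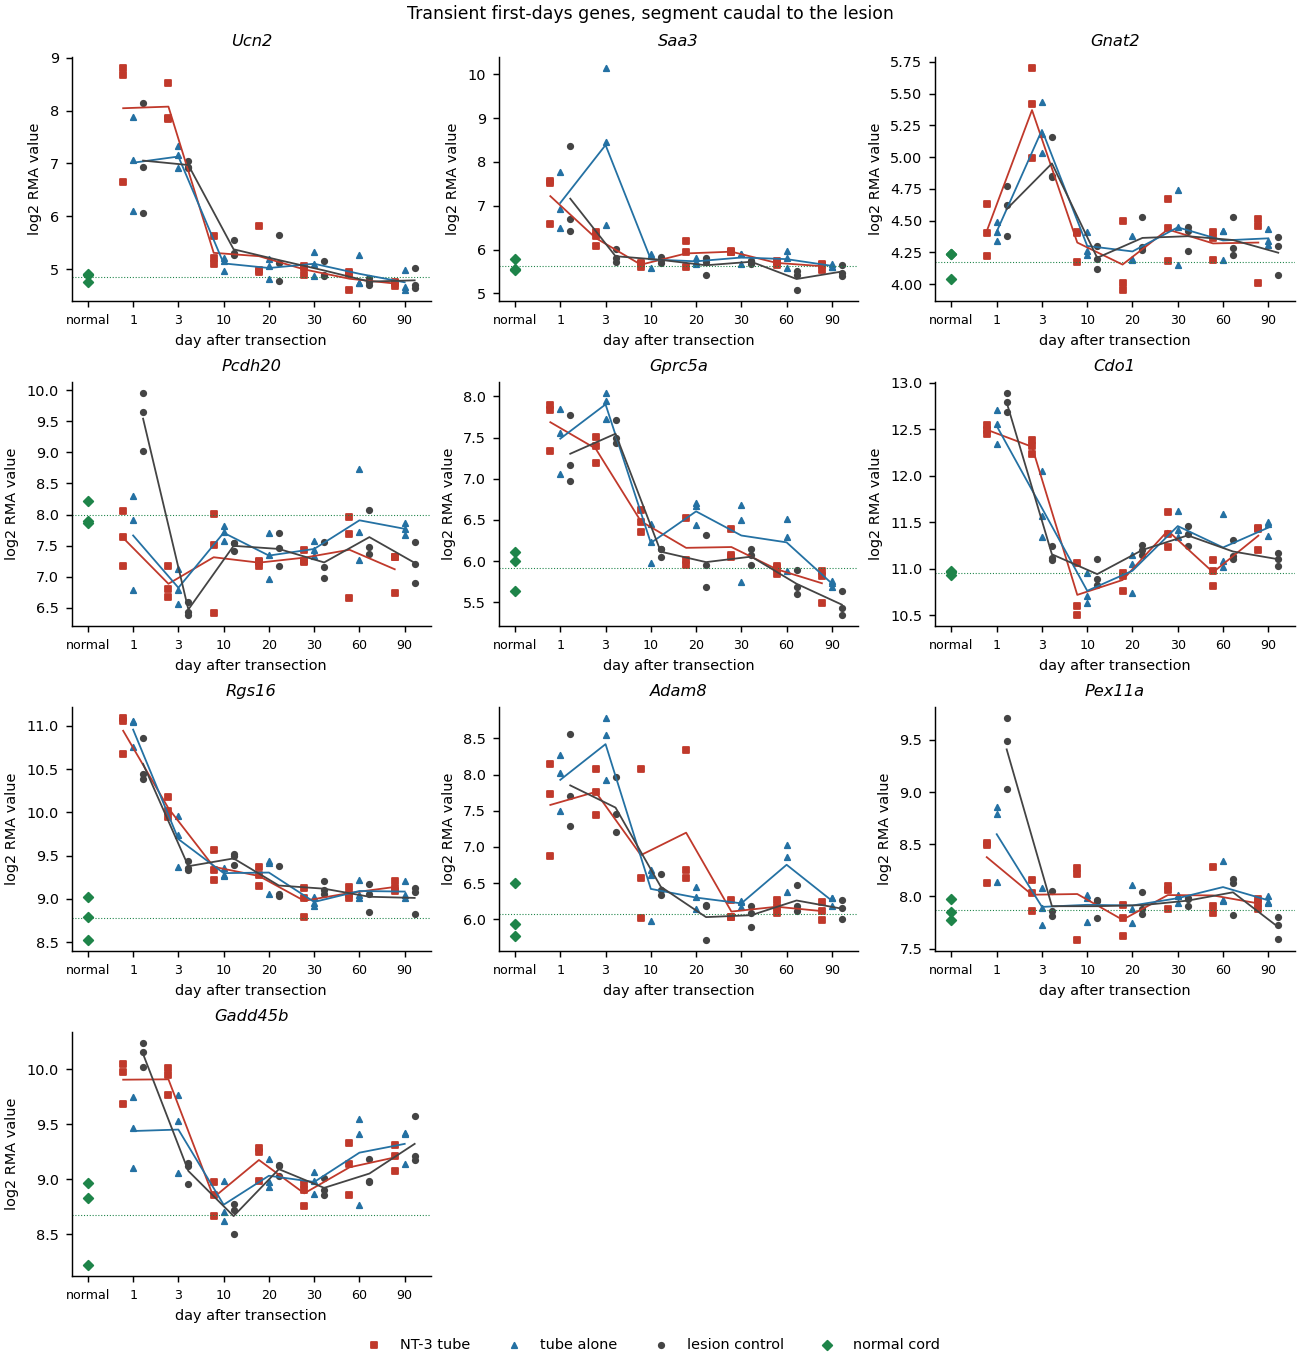
Log2 RMA value of the 10 genes in the caudal segment by day after transection, drawn as for the rostral segment, with normal cord at the left. Gnat2 on day 3 lies between 4.84 and 5.70 here, against 5.00 to 6.67 in the rostral panels.

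Timing within the first days was tested as day 3 minus day 1. In the rostral tube arms RT1-CE10 split these days too. It had 10.39 to 11.36 on day 1 and 7.26 to 9.19 on day 3 with the NT-3 tube. With tube alone it had 10.66 to 10.99 and 7.41 to 7.54. Day and that split cannot be told apart there. In caudal lesion control RT1-CE10 had 6.48 to 6.83 and 6.98 to 7.29. In the rostral segment 4 of the 10 genes were called with the NT-3 tube (23.9% of all genes in either direction) and 5 with tube alone (27.5%), and in the caudal segment of lesion control 6 were called (38.2%). Most of these calls were falls: 3, 4 and 6 of the 10 genes were called lower on day 3. Of all genes, 9.96%, 14.6% and 17.3% were called lower in the same comparisons. The counts are small, so most of what follows describes single genes. Of the 8 genes highest on day 1 in the rostral lesion control, 8, 6 and 8 were lower in mean on day 3 than on day 1 in those comparisons, 3, 4 and 6 of them called.

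Rgs16 was called lower on day 3 in all 3, by -0.99, -1.19 and -1.18 log2. Cdo1 fell to 11.10, 11.25 and 11.12 on day 3 in the caudal lesion control segment, against 12.69, 12.79 and 12.89 on day 1 (-1.63 ± 0.13, adjusted p = 6.09e-14). Pcdh20 had 6.44, 6.60 and 6.38 there on day 3, against 9.65, 9.95 and 9.02 on day 1, the largest fall of a member in that segment (-3.07 ± 0.32, adjusted p = 5.04e-11). Pex11a (-1.50) and Gadd45b (-1.06) fell with them. Saa3 fell by 1.31 log2 (adjusted p = 0.00554), a call lost without replicate 1 of day 1 (-0.71, adjusted p = 0.163). In the rostral NT-3 tube segment Saa3 fell by 3.16 ± 0.51 log2 (adjusted p = 3.48e-06) and Adam8 by 1.46 ± 0.32.

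Gnat2 ran the other way. It had 6.33, 5.87 and 5.00 on day 3, against 4.29, 4.39 and 4.74 on day 1 with the NT-3 tube (1.26 ± 0.17 log2 higher, adjusted p = 1.23e-07). With tube alone it had 6.05, 5.28 and 5.49 on day 3, against 4.78, 4.58 and 4.32 on day 1 (1.05 ± 0.17, adjusted p = 5.9e-06). In both arms the days did not overlap. In the caudal lesion control segment the difference was 0.36 (adjusted p = 0.0532). In the rostral tube arms, whose arrays did not choose it, Gnat2 was thus higher on day 3, where RT1-CE10 also split the days. Gprc5a, the other gene highest on day 3 in the rostral lesion control, was not called in any of the 3 comparisons.

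Between the arms, the rostral NT-3 tube and tube alone segments were compared first. On day 1 none of the 10 genes differed by limma (1.58% of all genes were called in either direction), with 2 at an unadjusted p under 0.05. On day 3, 1 of 10 did (1.64%): Saa3 was lower with the NT-3 tube, by -2.96 ± 0.51 log2 (adjusted p = 0.0012), with 6.60, 6.04 and 5.92 in NT-3 tube pools, against 8.60, 11.70 and 7.15 in tube alone pools. The groups do not overlap, but 1 pool sets the size: without tube alone replicate 2 the difference was -1.69 (adjusted p = 0.0281), and with the spread taken from those groups alone it was not called (adjusted p = 0.494). Without NT-3 tube replicate 2 the count on this day was 4, and without tube alone replicate 1 it was 2. No member's early-minus-late difference differed between these arms (9.61% of all genes were called), with 1 at an unadjusted p under 0.05.

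In the caudal segment the tube-bearing arms were compared with lesion control over days 1 and 3. The caudal lesion control values may not be independent of those that chose the genes. With the NT-3 tube 5 of the 10 genes differed (5.26% of all genes in either direction): Ucn2 (1.05 ± 0.25 log2), Rgs16 (0.53 ± 0.09) and Cdo1 (0.43 ± 0.10) were higher, and Pcdh20 (-0.75 ± 0.22) and Pex11a (-0.46 ± 0.11) lower. With tube alone 4 differed (6.67%): Saa3 (1.22 ± 0.27) and Rgs16 (0.36 ± 0.09) were higher, and Pcdh20 (-0.76 ± 0.22) and Pex11a (-0.41 ± 0.11) lower. With the spread taken from the compared groups alone, the count for tube alone was 0. It was 1 without tube alone day 3 replicate 2 or lesion control day 1 replicate 1, and 2 without tube alone day 1 replicate 2 or lesion control day 1 replicate 2. Pcdh20 lost the NT-3 tube call without any 1 of several arrays (adjusted p up to 0.136). These averages hide a difference between the days, so each day was also taken alone, a choice made after the day 1 levels were seen.

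On day 1, 2 of the 10 genes differed between NT-3 tube and lesion control (6.32% of all genes) and 3 between tube alone and lesion control (5.53%), and every called member was lower in the tube-bearing animals. The choice of genes by high early lesion control values favours this direction, because the caudal values may not be independent of it. Of the 20 genes left out, 6 were called higher and 1 lower with the NT-3 tube, and 5 higher and 0 lower with tube alone. Pcdh20 had 7.64, 8.05 and 7.18 with the NT-3 tube and 7.91, 6.79 and 8.29 with tube alone, against 9.65, 9.95 and 9.02 in lesion control. Neither tube arm overlapped lesion control, and the differences were -1.92 ± 0.32 (adjusted p = 7.01e-05) and -1.88 ± 0.32 log2 (adjusted p = 9.56e-05). Pex11a had 8.49, 8.51 and 8.13 with the NT-3 tube and 8.86, 8.14 and 8.79 with tube alone, against 9.71, 9.49 and 9.03 in lesion control (-1.03 ± 0.15 and -0.81 ± 0.15 log2). Gadd45b was lower with tube alone (-0.70 ± 0.17, adjusted p = 0.00624). RT1-CE10 split these same arrays (10.20 to 11.11 in the tube-bearing arms, against 6.48 to 6.83 in lesion control), so arm and that split cannot be told apart on day 1.

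On day 3 the called members were all higher in the tube-bearing animals, 3 with the NT-3 tube (2.78% of all genes) and 2 with tube alone (3.12%). Cdo1 had 12.32, 12.39 and 12.23 with the NT-3 tube and 12.05, 11.57 and 11.34 with tube alone, against 11.10, 11.25 and 11.12 in lesion control. The 3 arms did not overlap, and the differences from lesion control were 1.16 ± 0.13 (adjusted p = 1.22e-07) and 0.50 ± 0.13 log2 (adjusted p = 0.0285). Gadd45b (0.83 ± 0.17) and Rgs16 (0.67 ± 0.13) were higher with the NT-3 tube. Saa3 was higher with tube alone, with 8.46, 10.14 and 6.56, against 5.82, 5.71 and 6.02 in lesion control (2.54 ± 0.39, adjusted p = 5.48e-05). That SE takes the spread from all caudal groups. The SD of Saa3 was 1.79 in these tube alone pools and 0.16 in lesion control, so the p-value understates the spread between the tube alone pools. RT1-CE10 of those tube alone pools lay between 7.13 and 7.31, against 6.98 to 7.29 in lesion control, while it was 7.66 to 9.73 in the NT-3 tube pools.

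**Figure D4:**
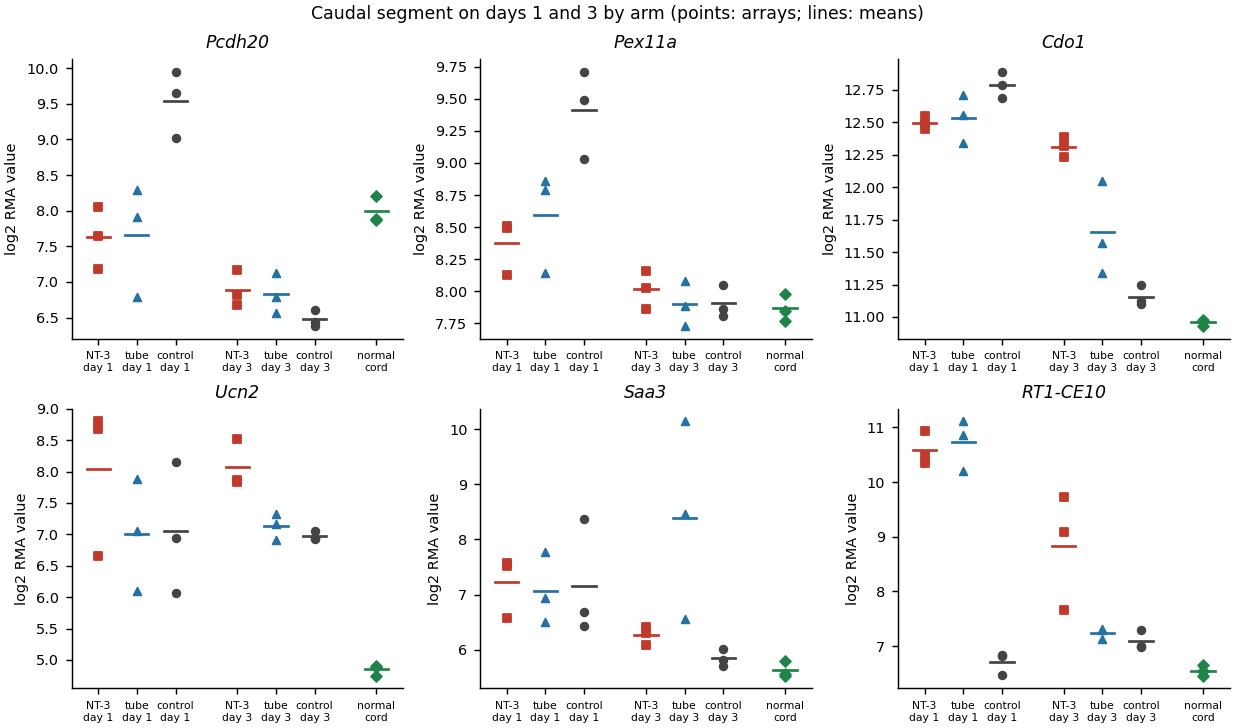
Log2 RMA value of 5 members and of RT1-CE10 in the caudal segment on days 1 and 3 in NT-3 tube, tube alone and lesion control, with normal cord at the right; points are arrays and lines group means. Pcdh20 and Pex11a are highest in lesion control on day 1, Cdo1 on day 3 is highest with the NT-3 tube (12.23 to 12.39), and RT1-CE10 is high in both tube arms on day 1.

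Cdo1 was also the member whose early-minus-late difference in the caudal segment differed between NT-3 tube and lesion control (0.47 ± 0.13 log2, adjusted p = 0.0396), 1 of 10 where 3.71% of all genes were called. The call was lost in most fits without 1 of the arrays (adjusted p up to 0.0815), and the count was 3 without NT-3 tube day 1 replicate 2 and 4 without lesion control day 1 replicate 3. Ucn2 had a larger interaction that was not called (1.04 ± 0.35, adjusted p = 0.0749). Between tube alone and lesion control none of the 10 was called by limma (0.612% of all genes), with 3 at an unadjusted p under 0.05.

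The sides of the cut were then compared. Rostral minus caudal over days 1 and 3 gave no call among the 10 genes with the NT-3 tube by limma (0.661% of all genes; 3 members at an unadjusted p under 0.05) and 1 with tube alone (8.48%). That was Gadd45b, 0.43 ± 0.12 log2 higher rostrally (adjusted p = 0.02), a call lost without replicate 3 (0.28, adjusted p = 0.564). Without replicate 2 the count with tube alone was 5, and without replicate 1 it was 2. Saa3 was 1.02 ± 0.32 and 0.93 ± 0.32 log2 higher rostrally in the NT-3 tube and tube alone arms without a call (adjusted p = 0.102 and 0.0537), in a fit that treats the segments as unpaired. With same-numbered rostral and caudal arrays of an arm and day taken as pairs, a choice made after seeing the data, Saa3 was called in both arms (adjusted p = 0.000467 and 0.000891), and the counts were 1 with the NT-3 tube and 3 with tube alone. With tube alone the deviations of same-numbered arrays correlated at 0.378 to 0.501 on day 3 but at -0.319 to -0.099 on day 1, so whether the numbers pair the segments is not settled. Ucn2 differed by 0.11 ± 0.21 and 0.61 ± 0.21.

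In the lesion segment the genes parted. Day 3 minus days 20 and 90 gave 6 of 10 higher with the NT-3 tube (21.1% of all genes) and 5 of 10 in lesion control (30.6%). Those higher in both were Ucn2, Gprc5a, Adam8 and Rgs16. The call of Rgs16 with the NT-3 tube was lost without day 3 replicate 1 (0.18, adjusted p = 0.367) and without 3 other arrays. Pcdh20 was lower on day 3 in both (-1.25 ± 0.15 and -1.32 ± 0.15 log2, adjusted p = 5.99e-08 and 9.24e-09).

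Ucn2 had 9.03, 8.48 and 9.17 on day 3 with the NT-3 tube and 7.90, 8.11 and 8.49 in lesion control, with differences from the late days of 3.34 ± 0.14 and 2.58 ± 0.14 log2. Adam8 had 10.01, 9.91 and 10.44 with the NT-3 tube, 10.84, 10.86 and 11.07 with tube alone and 10.37, 10.78 and 10.52 in lesion control, against 5.77, 6.50 and 5.94 in normal cord, so it stood over 4 log2 above normal in mean in every arm (4.05, 4.85 and 4.49). It came down unevenly. With the NT-3 tube it was 2.92 log2 above normal on day 10 and 3.49 on day 20, without overlap (8.32, 9.38 and 9.26 on day 10, 9.48, 9.42 and 9.77 on day 20), and in lesion control it was 2.41 and 1.69 above normal. The monocyte and macrophage marker sum on day 20 was 44194 to 47268 with the NT-3 tube and 24468 to 27699 in lesion control, and its part in the level of Adam8 was not tested. RT1-CE10 and the muscle and sensory ganglion markers also differed between those arrays, as given for Saa3 below.

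Gnat2 was not called at the lesion. It had 4.49, 4.40 and 4.58 on day 3 with the NT-3 tube and 4.81, 4.18 and 4.65 in lesion control, against 4.24, 4.04 and 4.24 in normal cord. The early-minus-late differences were 0.01 and 0.22 log2. Cdo1 and Pex11a were below normal cord in the lesion segment in all groups, by -0.41 to -2.51 and by -0.61 to -1.37 log2 in mean. Marker sums of neural cells were lower there too. On day 3 with the NT-3 tube the neuron sum was 6102 to 18047, against 77126 to 79589 in normal cord, the oligodendrocyte sum 26694 to 35027, against 75028 to 79241, and the astrocyte sum 21368 to 27357, against 52844 to 56739. Their part in the levels of Cdo1, Pex11a and Pcdh20 was not tested. Cdo1 was higher on day 3 than later with the NT-3 tube (1.29 ± 0.23, adjusted p = 2.79e-05) and not called in lesion control (-0.30 ± 0.23).

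Saa3 had a second peak at the lesion with the NT-3 tube. It had 7.80, 7.47 and 8.65 on day 3, 8.33, 6.83 and 6.62 on day 10, 10.38, 10.06 and 10.51 on day 20 and 7.21, 8.05 and 7.36 on day 30. On day 20 lesion control had 5.77, 6.21 and 5.69, without overlap. The difference between the arms on that day was not tested. RT1-CE10 split these arrays too (8.38 to 11.26 with the NT-3 tube, against 7.09 to 7.53 in lesion control). The skeletal muscle marker sum (log2) was 9.11 to 11.15 with the NT-3 tube and 13.59 to 14.94 in lesion control. That of sensory ganglion was 9.38 to 9.48, against 12.54 to 13.28. Arm, the RT1-CE10 split and the tissue content cannot be told apart there. On day 20 the marker sum of monocytes and macrophages, given above, and that of T and B cells (4009 to 5737 with the NT-3 tube, against 1443 to 1506 in lesion control) were higher with the NT-3 tube. The neutrophil sum was 6284 to 8939 with the NT-3 tube and 5297 to 27075 in lesion control, and the part of these cells in the level of Saa3 was not tested.

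**Figure D5:**
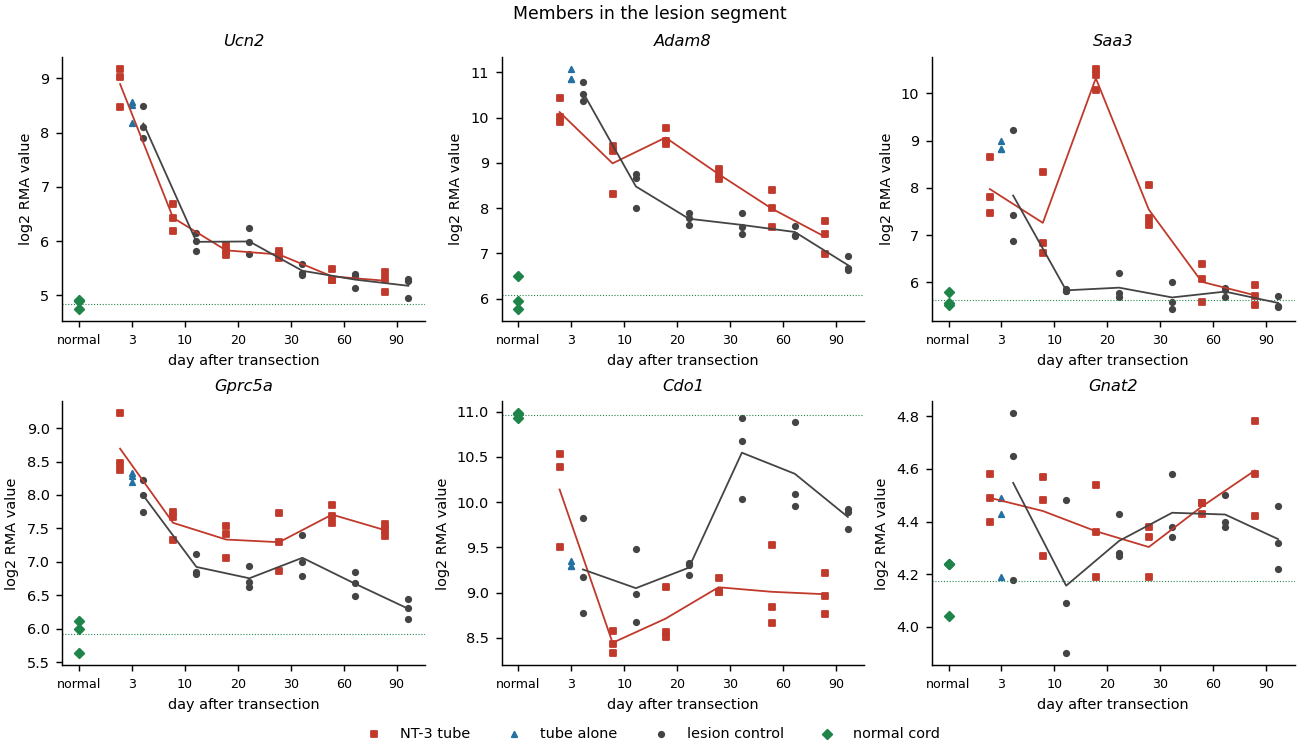
Log2 RMA value of 6 members in the lesion segment by day after transection, drawn as for the rostral segment; tube alone has day 3 only. Ucn2 and Adam8 decline in both arms, Gnat2 stays between 3.90 and 4.81, and Saa3 peaks on day 20 with the NT-3 tube (10.06 to 10.51).

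The members' partners in function were followed through lists of related genes. Of 23 measured acute-phase and secreted defence genes, Saa3 among them, 17 were higher in the first days in the rostral NT-3 tube segment and 15 with tube alone, 1 lower in each, with a median of 0.52 and 0.64 log2, against 0.03 and 0.01 over all genes. Of all genes, 26.2% and 19.5% were called higher and 20.0% and 19.3% lower in those comparisons. In the caudal lesion control segment 15 were higher and 1 lower, against 17.6% of all genes higher. Slpi, an inhibitor of leukocyte proteases, had the largest difference (4.25 ± 0.33 log2 with tube alone rostrally and 3.85 ± 0.26 in caudal lesion control), and Serpina1, alpha-1-antitrypsin, was lower (-0.90 and -0.33).

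Of 48 inflammatory transcription factors and signalling brakes, which include Rgs16 and Gprc5a, 25 and 26 were higher in the rostral NT-3 tube and tube alone segments and 3 and 7 lower, with medians of 0.33 and 0.33 log2. The shares of all genes higher and lower in these comparisons were again 26.2% and 20.0% with the NT-3 tube and 19.5% and 19.3% with tube alone. Dusp5, a phosphatase of MAP kinases (1.41 ± 0.13 with tube alone), Spry2, a Sprouty inhibitor of receptor tyrosine kinase signals (1.38 ± 0.09), and Nfkbiz, an atypical inhibitor of NF-kB (1.20 ± 0.17), rose beside the 2 members. Twist1 was lower with tube alone (-1.01 ± 0.21). Of 29 growth-arrest, DNA damage and death genes, which include Gadd45b, 12 and 11 were higher and 4 and 6 lower, with medians of 0.19 and 0.06 log2. Of all genes, 26.2% and 19.5% were higher and 20.0% and 19.3% lower. Gadd45g, a paralogue of Gadd45b, was 1.06 ± 0.13 log2 higher in the first days with tube alone, more than Gadd45b itself, and Ripk3, a kinase of necroptosis, 1.43 ± 0.12. Bcl2l11 (-0.93 ± 0.13) and Casp12 (-0.53 ± 0.18) were lower in that comparison.

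The 20 genes left out had similar counts. Of these, 18 were higher in the first days in the rostral NT-3 tube segment, 18 with tube alone and 19 in caudal lesion control. With them, 27, 27 and 29 of the 30 genes that met the limits were higher.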

How the data were processed

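RNA of cord segments was hybridised by the authors to Affymetrix rat expression arrays, 172 in all with 5 of a reference RNA. The deposited values are log2 RMA values made with Affymetrix Expression Console, per the labels and the submitters' processing notes, with no version stated in the sources used here. RMA compresses differences near background and equalises arrays, so a shift of all genes in 1 sample would not be seen. Of 31099 probe sets, 20832 have 1 gene symbol, 436 several and 9831 are unnamed here; 4526 of the 14218 genes have more than 1 probe set. Of the members, 5 have a normal mean below 6.55, the 40th percentile of the cord values, and 4 have a second probe set. No dim filter was used, so that each member has a test.

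The members, the gene lists and the tests were chosen with earlier results of these data known. Genes named singly followed a rule: all members, the 3 nearest to each limit on either side, up to 4 of each function list, and called members with the largest change. limma (lmFit, contrasts, eBayes) was fitted to rostral, caudal and lesion arrays apart, with 1 mean per arm and day and the normal arrays; rostral minus caudal used 1 fit over all cord arrays. Adjusted p-values are Benjamini and Hochberg's over all 14218 genes of a comparison (threshold 0.05, two-sided). Levels of the rostral lesion control, and all values against normal cord, share arrays with the choice of genes and were not tested. Comparisons that share a group are not independent, and p-values measure the spread between pools of 4 animals, whose number limits the precision. On data simulated for the caudal lesion control comparison (14218 genes), 84.7% of changes of 0.5 log2 and 98.5% of those of 1 log2 were called, with 5.53% false among the calls. There a small set of genes was changed equally on days 1 and 3, with the same spread in every group. In the data several members fell by day 3 and spread differed between groups, so these shares need not hold for them. Promoter windows came from RefSeq (GRCr8). Alternatives were leaving out each array in turn, single days, a minimum change of 2-fold, averaging a gene's probe sets, other sets of arrays in the fit, the replicate number as a block, array weights, a robust eBayes prior with trend, quantile normalization repeated and a filter on dim genes; single days against lesion control and pairing the segments were added after seeing the data. The software was limma 3.58.1 in R 4.3.3, and matplotlib 3.10.9, numpy 2.4.6 and pandas 2.3.3 in Python 3.11.15.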

Additional observations from a re-analysis of the deposited data

Results flagged for a closer look

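The early-minus-late difference of Cdo1 in the caudal segment was larger with the NT-3 tube than in lesion control, by 0.47 log2 in a test of the difference itself (adjusted p = 0.0396). It lost the call in 1 fit over all cord arrays (adjusted p = 0.117) and in most fits without 1 array.

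The 5 arrays of a universal reference RNA, which no comparison uses, had 3 members well above normal cord. Saa3 was 3.20 log2 higher there (8.82 ± 0.21, against 5.63 in normal cord), Gprc5a 4.09 higher (10.00 ± 0.10, against 5.91) and Adam8 2.6 higher (8.67 ± 0.12, against 6.07; SD over 5 technical repeats of 1 RNA, so they measure technical noise and 1 sample). Cdo1 (-3.97 log2) and Pcdh20 (-3.41) lay far below normal cord in the same RNA. Gadd45b was 1.28 above it, and the remaining members lay between -0.39 and 0.42.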

How the results depend on the processing

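Of 19 comparisons, 6 kept their count of called members within 1.5 times under every alternative: early minus late in both rostral arms and both lesion arms, and day 3 minus day 1 in the rostral NT-3 tube and caudal lesion control segments. For the others the values follow, as numbers of the 10 genes called. With a 2-fold minimum, the early-minus-late count was 3 in caudal lesion control, 5 with the NT-3 tube caudally and 5 with tube alone caudally, day 3 minus day 1 gave 2 with tube alone rostrally, both tube arms against caudal lesion control gave 1, and rostral minus caudal with tube alone and the NT-3 tube interaction with lesion control gave 0. Day 3 minus day 20 gave 4 in caudal lesion control. The replicate block gave 2 for NT-3 tube minus tube alone on day 3 and 2 for rostral minus caudal with tube alone, and it changed no other count by over 1.5 times. A block within arm and day, added after seeing the data, gave 1 and 3 for rostral minus caudal with the NT-3 tube and tube alone. Replicate numbers did not pair the arrays throughout: all same-numbered correlations passed 0.1 in 5 of 46 group pairs, 3 of them among the tube alone arrays of days 1 and 3, and the mean was 0.046 against -0.023 for other arrays. With only the groups in the contrast, NT-3 tube minus tube alone on day 3, tube alone minus lesion control caudally and rostral minus caudal with tube alone gave 0, and the NT-3 tube interaction 2. Against caudal lesion control, day 1 alone and day 3 alone gave 2 and 3 for the NT-3 tube, and day 3 alone 2 for tube alone. Rostral minus caudal with the NT-3 tube gave 2 with array weights and 1 with the mean of all probe sets. With tube alone it gave 3 with the dim filter, 3 with a second normalization, 4 with array weights and 2 with the mean of all probe sets. The NT-3 tube interaction with lesion control gave 2 with the dim filter, 7 with array weights, 2 in 1 fit over all cord arrays and 2 with the mean of all probe sets, and the tube alone interaction 4 with array weights. The mean of all probe sets gave 2 for tube alone minus lesion control caudally. The cause of these changes was not tested.

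Leaving out 1 array or replicate number at a time gave early-minus-late counts of 9 to 9 in both rostral arms, 9 to 10 in caudal lesion control, 9 to 9 and 7 to 9 in caudal NT-3 tube and tube alone, and 5 to 6 in both lesion arms. Day 3 minus day 1 gave 4 to 6, 4 to 6 and 5 to 7, NT-3 tube minus tube alone 0 to 1 on day 1 and 1 to 4 on day 3, the tube arms against caudal lesion control 4 to 5 and 1 to 4, rostral minus caudal 0 to 1 and 0 to 5, and the interactions 0 to 1, 0 to 4 and 0 to 1. Differences that changed sign were those of Gnat2 with the NT-3 tube rostrally on day 1 minus day 90 (-0.04) and, on day 3 minus day 20, of Pcdh20 (-0.97), Cdo1 (-0.0467), Pex11a (-0.01) and Gadd45b (-0.0167) in caudal lesion control and of Pex11a with tube alone caudally (-0.0133). Of 85 called pairs of gene and comparison, 51 kept sign and call in every alternative. A looser and a stricter early limit gave 27 and 6 genes, a stricter and a looser late limit 5 and 19, 9 with the mean of all probe sets (without Adam8), 10 to 11 without 1 normal array (6 to 9 of them among the 10), and 30 with no gene left out. Adam8 was lost without any 1 of the normal arrays.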

Other observations

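Other function lists without a member moved in the same comparisons. Of 55 ribosome biogenesis and RNA export genes, 45 were higher in the first days with tube alone rostrally and 44 in caudal lesion control, and none was called lower in either, with medians of 0.41 and 0.33 log2. Of 27 polyamine, nucleotide and one-carbon genes, 20 and 18 were higher and 0 and 3 lower. Of 44 unfolded-protein and amino-acid response genes, 25 and 20 were higher and 8 and 6 lower, and of 33 hypoxia and glycolysis genes, 22 and 14 were higher and 3 and 3 lower. The lists were written with earlier results known, and their counts stand beside 19.5% and 17.6% of all genes called higher.

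On days 10, 30 and 60, which the choice of genes did not use, no member had a mean 1.5 log2 above normal cord in the rostral or caudal segment of any arm. The highest such mean was 0.97 log2, of Adam8 in the rostral NT-3 tube segment on day 10.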
